A study of Drosophila melanogaster with 216 samples.

Results

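Middle-aged male fruit flies (Drosophila melanogaster) kept on poor adult food were compared with males of the same age class kept on standard adult food. The 24 arrays were chosen by their labels alone, as male, collected when 10% of a cohort had died, and fed 0.25SY (12 arrays) or 1SY (12 arrays) as adults, out of 216 arrays in the whole series. By the labels, the 1SY food held 70 g yeast and 100 g sugar per litre, and 0.25SY held 25% of both. The study's methods give the same amounts, and its results text gives those of yeast and sugar the other way round. Larvae had been reared on 0.25SY, 1SY or 2.5SY, the richest food with 250% of both ingredients, and each larval diet gave 4 arrays of each adult diet. All flies were virgins of a laboratory stock population. An array measured RNA of 5 whole flies. The 4 arrays of a larval and adult diet pair were drawn from 1 cohort kept on that pair, so p-values measure the spread between arrays, and a difference between cohorts cannot be told apart from one between diets within a pair. Flies were collected by cohort mortality, so their age in days can differ between the diets and is not given in the sources used here. Arrays of 12 middle-aged males on 2.5SY, of 24 old males (90% mortality) and of 24 middle-aged females on 0.25SY and 1SY were used for side-by-side values and for tests of the difference in response.

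A fly digests protein, starch and sugar with enzymes secreted by the midgut and borne on its brush border, and takes up the products through the same cells. The fat body stores the surplus and makes most of the blood-borne immune peptides, and insulin-like peptides from the brain report on feeding. Yeast is the source of protein, lipids, phosphate and vitamins in laboratory fly food, so dilution of sugar and yeast together lowers calories and nearly all nutrients at once. Because whole flies were used, fewer cells of a type and less RNA per cell cannot be told apart in any value below.

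All values are log2 signals, so a difference of 1 is a doubling, and every difference is 0.25SY minus 1SY, adjusted for larval diet. Testis genes (list means of 9.85 to 10.54) and low female germline genes (6.68 to 6.96) placed all 24 arrays with males. Array medians lay between 7.23 and 7.35 except for 1 array on standard food (larval 2.5SY, replicate 3) at 7.03, which also correlated less with its own group (0.987, against 0.991 or more for the others). Counts of the gene lists that change without it are given both ways for the digestive, fatty acid and amino acid lists. Eggshell and yolk genes averaged 7.16 and 6.95 in 2 arrays on poor food, against 5.70 to 6.56 in the other 22 arrays, and fat body proteins averaged 6.98 in the second of these, against 8.13 to 9.98 elsewhere. These 2 (larval 0.25SY replicate 1 and larval 2.5SY replicate 3) and the array that stood apart had the lowest limma quality weights, and counts without all 3 were computed after seeing the data. The number of arrays limits the precision.

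Adult diet changed many genes, most of them by small amounts. In limma's moderated test, 968 of 18769 probe sets (5.16%) were higher and 756 (4.03%) lower on poor food after Benjamini-Hochberg adjustment, 9.19% in all. With each gene represented by its brightest probe set, 807 of 11982 genes rose (6.74%) and 637 fell (5.32%), 12.1% in either direction. These shares are the background for every count of called list members below. In all, 288 called genes differed by at least 0.5 on the log2 scale and 55 by at least 1, and of these 55, 14 rose and 41 fell. Without the array that stood apart the counts of genes were 813 up and 814 down (6.79% each). The share of called probe sets that were higher depended on scaling. It was 56.1% in the deposited values, 50.1% after quantile normalization over the 24 arrays, and 40.5% with each array centred on its median.

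The first principal component held 21.2% of the variance and separated the diets in part. Its scores ran between -3.57 and 24.5 on poor food and between -38.8 and 9.71 on standard food. The -38.8 was the array that stood apart, and the 9.71 was larval 0.25SY replicate 4. The other arrays on standard food ran between -18.1 and -0.94. The means differed by 21.5, against a spread of 10.7 within diets (two-sided permutation test within larval diets, adjusted p = 3e-05, which rests on the smallest p that 100000 permutations can give). Neither of the next components separated the diets at the threshold (adjusted p = 0.123 and 0.428). Full separation of single genes was rare. For 43 probe sets (0.229%) all 12 arrays on poor food lay above all 12 on standard food, and for 3 (0.016%) all lay below.

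Alkaline phosphatases gave the largest differences of the comparison. These enzymes split phosphate from organic molecules, mostly on the outer face of absorptive cells in the gut and excretory tubules. Of 13 measured members 9 rose on poor food and none fell, with a median difference of 0.59 against 0.02 over all genes.

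The leading gene was phu, an alkaline phosphatase also named Alp3. In males on poor food its lowest, median and highest signals were 10.16, 12.10 and 13.75, against 6.07, 7.70 and 8.66 on standard food. The 2 sets of arrays did not overlap, and all 3 larval diets gave differences of 3.62 or more. The fitted difference was 4.29 ± 0.36 (SE, 12 arrays each), which is 19.6-fold (95% interval 3.55 to 5.03 on the log2 scale, limma adjusted p = 9.27e-08). Males on 2.5SY averaged 7.92, so that the high level was found on 0.25SY alone among the 3 foods.

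Alp8 had signals of 5.26, 7.78 and 9.12 (lowest, median, highest) on poor food and 4.18, 4.48 and 4.72 on standard food, with all 12 arrays on standard food near the dim end of the scale. Its difference was 3.11 ± 0.29 (adjusted p = 5.17e-07). Alp2 ran at 11.71, 12.71 and 13.38 on poor food and at 9.81, 10.42 and 11.13 on standard food, a difference of 2.24 ± 0.15 with the smallest adjusted p of the phosphatases (3.97e-09). Neither gene overlapped between the diets. Males on 2.5SY averaged 4.43 for Alp8 and 10.53 for Alp2, both within the range on standard food.

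Alp9 (1.73 ± 0.19), Alp10 (1.72 ± 0.17) and Alp4 (0.94 ± 0.10), the last a phosphatase of the Malpighian tubules and brain, also had no overlap, with adjusted p of 3.13e-06, 5.75e-07 and 2.63e-06. Alp6 rose by 0.59, Alp7 by 0.40 and Alp5 by 0.38, and for these the arrays of both diets overlapped. Alp7 ran between 5.08 and 5.64 on poor food and between 4.58 and 5.75 on standard food. Both ranges are near the dim end of the scale, so the size of its difference is uncertain. Alp12, Alp11, Alp13 and Alp1 differed by 0.18, 0.09, -0.15 and -0.15 and did not pass the test. Alp7, Alp2 and Alp8 are neighbours on the chromosome, as are Alp10 and Alp9, so both runs of neighbours hold risen genes. The 9 calls were the same in number without the array that stood apart and without the 3 arrays of lowest quality weight.

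**Figure D1:**
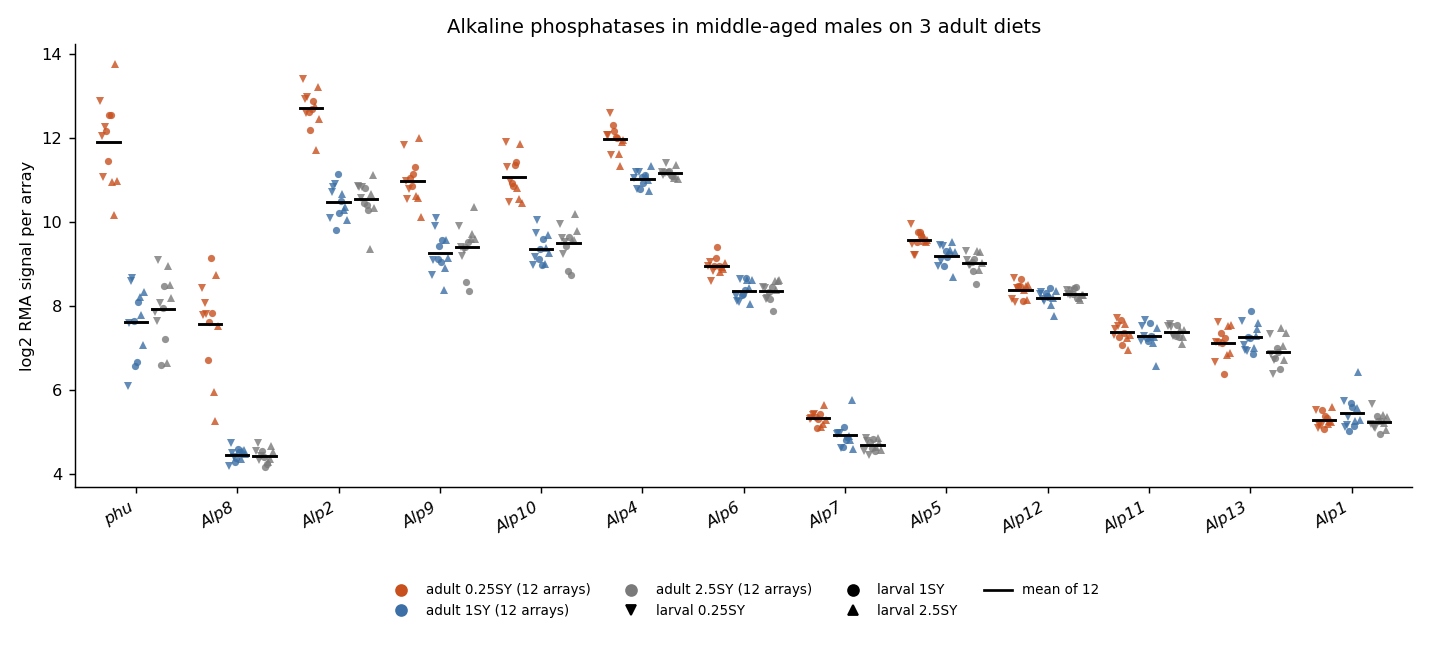
Log2 signal of the 13 measured alkaline phosphatases in middle-aged males, 1 point per array, with adult diets 0.25SY, 1SY and 2.5SY from left to right for each gene, the larval diet as the point's shape, and the mean of 12 arrays as a bar. In phu, Alp8, Alp2, Alp9, Alp10 and Alp4 every point on 0.25SY lies above every point on 1SY, and the points on 2.5SY lie near those on 1SY.

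Enzymes of protein digestion moved with less uniformity, and 2 of them, the serine peptidase Jon99Fi and the carboxypeptidase CG12374, were among the 15 genes that rose most. Jonah peptidases cut food proteins inside the chain in the midgut, trypsins cut after basic residues, and carboxypeptidases remove amino acids from the end. Of 13 Jonah genes 4 rose and 1 fell, of 12 trypsins 3 rose and 1 fell, and of 13 carboxypeptidases 4 rose and 1 fell.

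Jon99Fi had signals of 11.98, 12.81 and 13.23 (lowest, median, highest) on poor food and 8.74, 11.36 and 12.19 on standard food. The diets overlapped only between 11.98 and 12.19, through 2 arrays of each. The spread was wider on standard food, where males raised on 0.25SY had 8.74, 11.11, 8.94 and 11.97. Its difference was 1.61 ± 0.31 (3.05-fold, adjusted p = 0.00133), and larval diets 0.25SY, 1SY and 2.5SY gave 2.58, 0.83 and 1.42.

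CG12374 had signals of 12.54, 13.17 and 13.79 on poor food and 9.61, 11.26 and 13.61 on standard food, with a difference of 1.78 ± 0.30 (3.44-fold, adjusted p = 4.57e-04). On standard food, males raised on 0.25SY had 12.45, 12.32, 9.61 and 13.61, those raised on 1SY had 10.27, 10.70, 10.72 and 10.36, and those raised on 2.5SY had 11.24, 11.29, 11.41 and 11.98. The larval 0.25SY arrays held both the lowest value (replicate 3) and the highest (replicate 4), and the larval by adult diet test did not pass (adjusted p = 0.608). The arrays on 2.5SY averaged 12.55 for CG12374 and 12.29 for Jon99Fi, both above the 1SY medians. These comparisons share the 1SY arrays, so no test was made of them. Jon99Fi has near-identical neighbours with no probe set of their own on this array, and its signal may include theirs.

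Jon74E (0.78), Jon66Ci (0.78) and Jon65Aii (0.70) rose as well, with adjusted p of 2.28e-04, 0.0153 and 0.0384. Jon99Ci fell by 0.54 (adjusted p = 0.0315). Among the other 8 members Jon25Biii had the largest positive value (0.46) and Jon25Bi the most negative (-0.56), neither past the threshold. The median of the Jonah list was 0.21. Without the 3 arrays of lowest quality weight, 3 Jonah genes passed as higher and 0 as lower.

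The trypsin epsilonTry rose by 0.83 ± 0.15 (adjusted p = 7.04e-04), lambdaTry by 0.20 and betaTry by 0.12, while iotaTry fell by 0.43 (adjusted p = 0.00283). The list's median was 0.11. With quantile normalization 2 trypsins passed as higher, and with arrays centred on their medians 1 did. Without the array that stood apart 2 passed as higher and 2 as lower. Without the 3 arrays of lowest quality weight 1 passed as higher and 1 as lower. Of the carboxypeptidases, CG17633 rose by 0.62, CG7025 by 0.49 and CG8562 by 0.37, whereas CG2915 fell by 0.30. The other 8 had differences between -0.30 and 0.24. Their median with the 5 called members was 0.07, against 0.02 over all genes. Without the array that stood apart 3 rose, as CG8562 was no longer past the threshold (adjusted p = 0.0535).

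**Figure D2:**
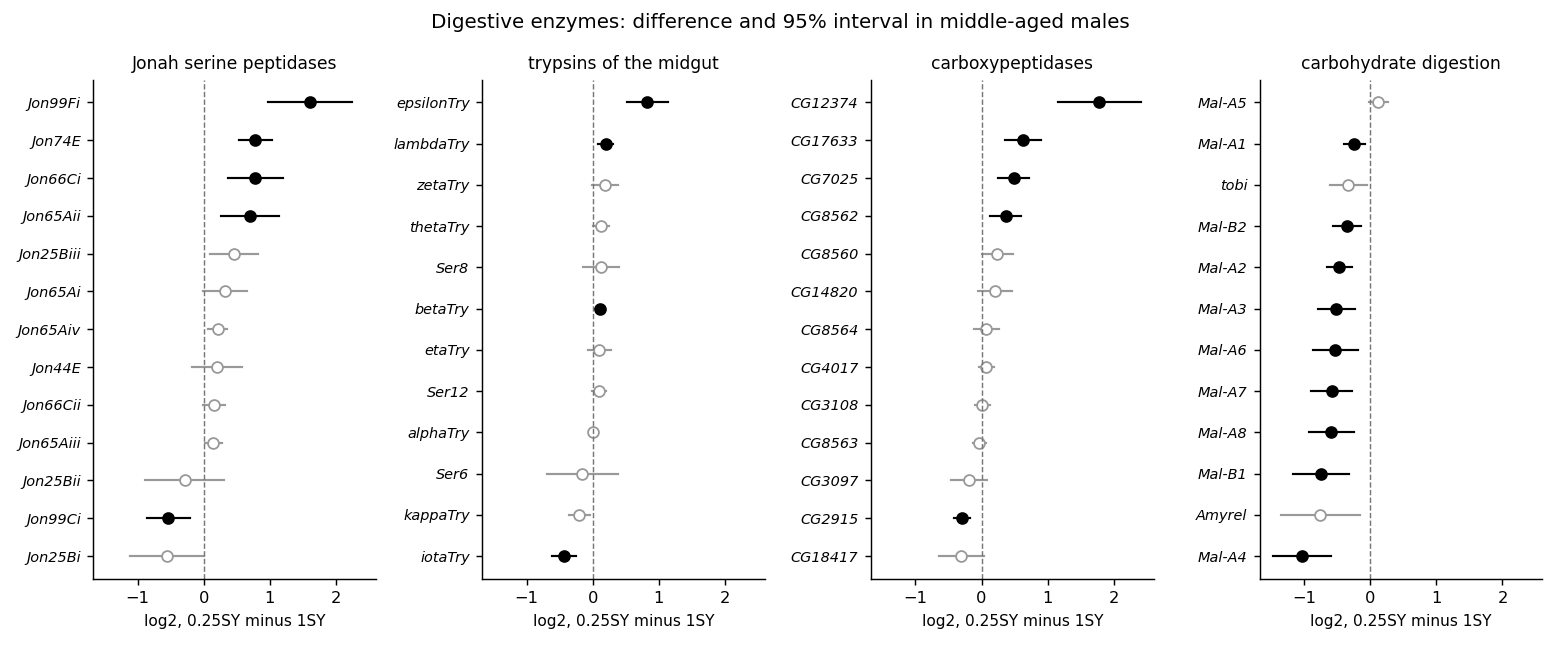
Log2 difference (0.25SY minus 1SY) with its 95% interval for each measured member of 4 lists of digestive enzymes in middle-aged males, 24 arrays. Filled points passed the adjusted threshold. Jon99Fi and CG12374 lie farthest to the right in their lists, and the filled points of the carbohydrate list all lie left of 0.

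Carbohydrate digestion went the other way. Maltases split disaccharides and short starch fragments into glucose, and 9 of 12 measured genes of this list fell on poor food while none rose, with a median difference of -0.52. Mal-A4 had signals of 8.90, 10.16 and 11.18 on poor food and 9.69, 11.36 and 11.87 on standard food. The arrays of both diets overlapped, and the fitted difference was -1.04 ± 0.21 (adjusted p = 0.00256). Mal-B1 fell by 0.74, Mal-A8 by 0.59 and Mal-A7 by 0.59. Mal-A5 was the single positive member (0.12, adjusted p = 0.338), and the amylase-related gene Amyrel (-0.76) and tobi (-0.33) did not pass. Without the array that stood apart 7 fell, and without the 3 arrays of lowest quality weight 6 fell. Middle-aged males on 2.5SY averaged 10.22 for Mal-A4, near the level on poor food.

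Lipid digestion had no common direction, with 2 of 22 genes up and 4 down, against 6.74% and 5.32% of all genes. The gastric lipase mag rose by 0.71 and the sterol-binding protein Npc2d by 0.99. Lip3, an acid lipase, fell by 1.46, CG31091 by 1.01 and CG6271 by 0.47. CG17191 also passed as lower, but its signals on poor food (4.25 to 5.10) were at the dim end of the scale, so the size of its difference is uncertain. Without the array that stood apart 3 fell, as CG6271 did not pass (adjusted p = 0.0565). Lip3 ranged from 5.39 to 9.43 on poor food and from 6.30 to 10.15 on standard food, one of the wider spreads among the called genes. Npc2d had 10.40, 10.86 and 11.54 (lowest, median, highest) on poor food, 9.19, 9.87 and 11.15 on standard food, and a mean of 10.95 on 2.5SY.

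The remaining genes with the largest rises have few described roles. CG7298 rose by 1.54 ± 0.42 (adjusted p = 0.0203), with the widest range on poor food among the 15 genes that rose most, 5.998 to 11.12 against 6.06 to 7.16 on standard food. CG12057 rose by 1.35, CG11425, a relative of the lipid phosphate phosphatase wunen, by 1.26, CG12483 by 1.05 and CG10182 by 1.04. CG7542, a serine peptidase next to Jon74E on the chromosome, rose by 1.01 ± 0.13 (adjusted p = 3.36e-05). CG1946 rose by 1.00. Without the 3 arrays of lowest quality weight CG11425 was no longer past the threshold.

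Several immune genes fell on poor food. Antimicrobial peptides are secreted by the fat body and by barrier epithelia after the Toll or Imd pathway is switched on, and peptidoglycan recognition proteins sense or degrade bacterial cell wall. All 12 measured antimicrobial peptides had negative differences, with a median of -0.92, but only Def and Drs passed the test, and the arrays varied widely. Over all genes 5.32% passed as lower. Of 7 peptidoglycan recognition proteins 4 fell and none rose, with a median of -0.62.

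Defensin (Def) had signals of 6.67, 9.12 and 10.99 (lowest, median, highest) on poor food and 8.67, 10.65 and 11.84 on standard food. The ranges overlapped widely. The difference was -1.79 ± 0.41 (adjusted p = 0.00587). Drosomycin (Drs), an antifungal peptide, had 10.38, 12.04 and 14.01 on poor food and 12.29, 13.45 and 14.40 on standard food, a difference of -1.43 ± 0.33 (adjusted p = 0.00628). For edin, Mtk, DptB and CecB the differences of -1.83, -1.44, -1.40 and -1.05 did not pass (adjusted p between 0.0772 and 0.174).

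Pirk, a feedback inhibitor of the Imd pathway, fell more tightly than the peptides. It had 8.504, 9.13 and 10.02 on poor food and 9.24, 10.56 and 11.53 on standard food, and a difference of -1.44 ± 0.19 (adjusted p = 2.52e-05). PGRP-SB1, a secreted amidase, fell by 1.06, PGRP-LB, an amidase that dampens Imd signalling, by 0.93, and PGRP-LF, a membrane-bound inhibitor of Imd, by 0.68. PGRP-LA fell by 0.22. On 2.5SY the means were 8.78 for Def and 9.24 for pirk, so that of the 3 foods the standard one had the highest mean of both. The lysozyme LysP rose by 0.69 (adjusted p = 0.0173), 1 of 3 lysozymes measured, of which none fell, and was not past the threshold without the 3 arrays of lowest quality weight. In limma 0 of 4 Turandot stress peptides passed (0 at an unadjusted p under 0.05, 0 by ordinary least squares), with a median of 0.11.

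**Figure D3:**
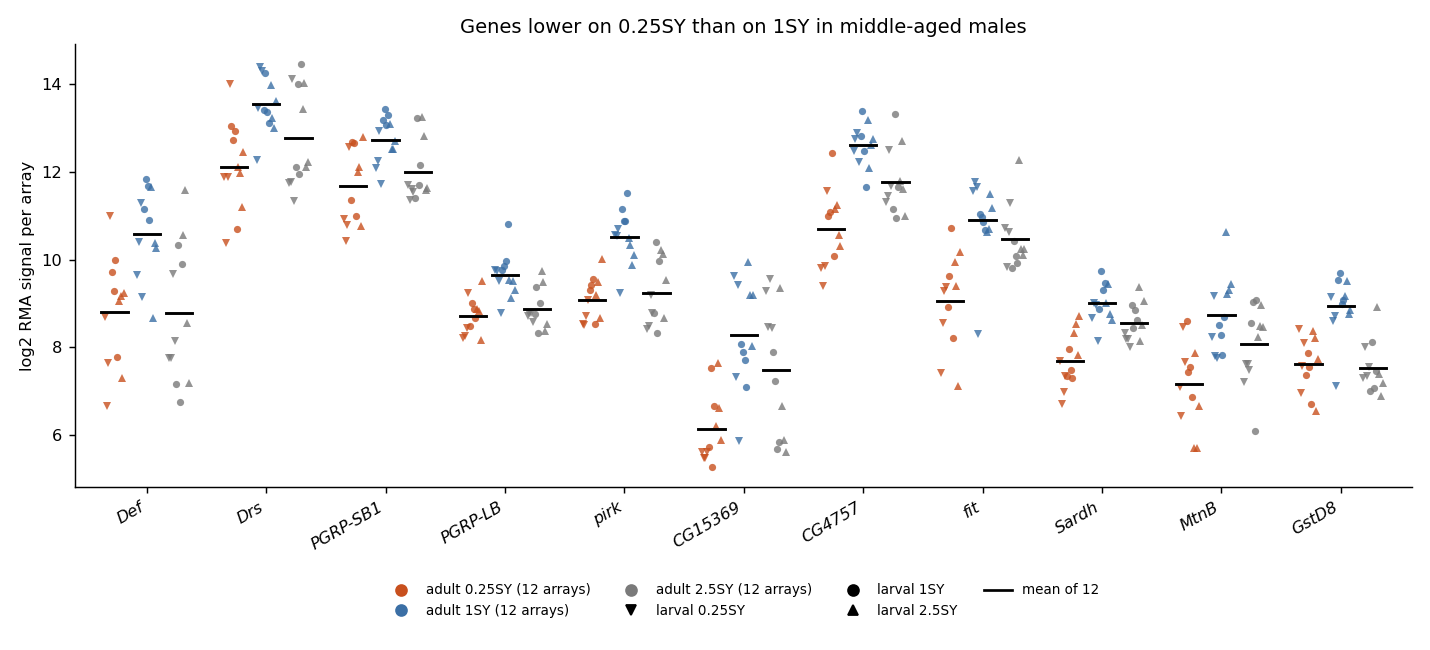
Log2 signal of 11 genes that fell in middle-aged males on 0.25SY, 1 point per array, with adult diets 0.25SY, 1SY and 2.5SY from left to right for each gene, larval diet as shape and the mean of 12 arrays as a bar. In every gene the bar on 0.25SY is below that on 1SY while single points overlap.

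CG15369 fell most of all genes. Its signals were 5.27, 5.80 and 7.65 on poor food and 5.86, 8.06 and 9.95 on standard food, with a difference of -2.14 ± 0.36 (4.41-fold, adjusted p = 4.08e-04). All 4 poor-food arrays of males raised on 0.25SY lay between 5.46 and 5.62. CG4757 had 9.40, 10.78 and 12.43 on poor food and 11.67, 12.69 and 13.39 on standard food, a difference of -1.91 ± 0.26 (adjusted p = 4.46e-05).

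The gene fit, which in females encodes a fat body satiety signal for protein, had 7.11, 9.33 and 10.73 on poor food and 8.31, 11.01 and 11.78 on standard food. Its difference was -1.85 ± 0.39 (adjusted p = 0.00298), and 1 standard array, at 8.31, lay with those on poor food. That array (larval 0.25SY, replicate 4) also had the lowest fat body list mean on standard food, 8.13, a list that includes fit itself. It held the highest standard-food values of CG12374 (13.61) and Npc2d (11.15), on the side of poor food. On the same side were its CG15369 (5.86), CG14499 (7.03) and Lip3 (6.30), the lowest on standard food, but not its Drs (14.32). Without this array the differences of CG12374, fit and Lip3 were 1.98, -2.08 and -1.65. MtnB, a metallothionein that binds heavy metals, differed by -1.57 ± 0.35 (adjusted p = 0.00501), with -0.83, -0.72 and -3.17 after larval 0.25SY, 1SY and 2.5SY. Of 11 metal-binding genes 5 fell and 1 rose (7 and 0 with arrays centred on their medians, 8 and 1 without the 3 arrays of lowest quality weight). In that list the transferrins Tsf1, Tsf3 and Tsf2 fell by 0.38, 0.31 and 0.26, while MtnA, another metallothionein, rose by 0.13.

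The other 8 genes among the 15 largest falls were CG30098 (-1.59), CG14499 (-1.56), CG30083 (-1.49), Sid (-1.47), Lip3 (-1.46), CG9733 (-1.46), CG42807 (-1.46) and CG17107 (-1.44). CG30098, CG30083 and CG9733 are serine peptidases outside the digestive lists, and Sid is a nuclease induced by stress. In CG30083 the medians were 7.75 on poor food and 9.51 on standard food, with ranges of 7.07 to 8.89 and 8.51 to 10.44.

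Genes of amino acid breakdown and one-carbon metabolism fell in number, 11 of 23, and 2 rose. The median was -0.27. Sardh, which oxidises sarcosine, had 6.71, 7.58 and 8.71 on poor food and 8.15, 8.99 and 9.75 on standard food, and fell by 1.32 ± 0.17 (adjusted p = 2.92e-05). Nmdmc, an enzyme of mitochondrial folate metabolism, fell by 0.71, Oat, which transfers the amino group of ornithine, by 0.55, and hgo, the tyrosine-degrading homogentisate oxidase, by 0.54. The 2 members that rose were Odc1 (0.41), the ornithine decarboxylase of polyamine synthesis, and slgA (0.35), the proline dehydrogenase. Without the array that stood apart 3 rose and 11 fell.

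Differences of nutrient signalling genes were smaller. Ilp2, an insulin-like peptide of brain cells, had 8.20, 8.73 and 9.19 on poor food and 8.94, 9.28 and 9.52 on standard food, a fall of 0.58 ± 0.09 (adjusted p = 3.00e-04), and Ilp5 fell by 0.29. They were the only called genes of 11 in the insulin and FOXO list, against 5.32% of all genes that fell. Without the 3 arrays of lowest quality weight 1 was called. In the sugar sensing list 3 of 10 rose and 1 fell. The transcription factor sug rose by 0.85, the TGF-beta ligand daw by 0.76 and the transcription factor cbt by 0.36. Mondo, which senses sugar together with Mlx, fell by 0.25. The sug arrays separated only after larval 1SY, with 9.83 to 10.16 on poor food and 7.39 to 8.51 on standard food. After larval 0.25SY the highest standard array (9.31) lay above the lowest on poor food (9.28). After larval 2.5SY these were 9.42 and 8.77. Each pair of larval and adult diet is 1 cohort, and sug did not pass the larval by adult diet test. In the TOR list 2 of 16 genes were called, against 12.1% of all genes, so the list did not stand out. They were AMPKalpha, the catalytic subunit of the energy-sensing kinase (0.16), and gig (Tsc2), an inhibitor of TOR (-0.13). With arrays centred on their medians none was called as higher, and without the 3 arrays of lowest quality weight none as lower.

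Of 13 genes of fat storage and mobilisation 2 rose and 3 fell. The fat body lipase bmm had 11.24, 11.56 and 11.997 on poor food and 11.68, 12.35 and 12.55 on standard food, and fell by 0.63 ± 0.10 (adjusted p = 2.90e-04). Mtp, which loads lipid onto lipoproteins, fell by 0.40. AkhR, the receptor of the adipokinetic hormone, rose by 0.42 and the lipid droplet protein Lsd-2 by 0.34. In fatty acid synthesis 3 of 13 fell (Lpin by 0.29, Men by 0.25, AcCoAS by 0.18) and FASN3 rose by 0.28. Without the array that stood apart AcCoAS did not pass (adjusted p = 0.0584), and with arrays centred on their medians 2 fell and 0 rose. Among nutrient transporters CG5535 rose by 0.54 and JhI-21 by 0.24, while sut2 fell by 0.50 and NAAT1 by 0.33.

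Mitochondrial genes rose by small amounts in large numbers. The respiratory chain moves electrons from NADH and succinate to oxygen and drives ATP synthesis. Of 32 measured complex I subunits 19 rose, of 39 subunits of complexes II to V 21 rose, of 11 citric acid cycle enzymes 5 rose and of 69 mitochondrial ribosomal proteins 20 rose, and none fell in these 4 lists. The medians were 0.15, 0.15, 0.17 and 0.13, against 0.02 over all genes. With arrays centred on their medians the counts were 4, 13, 4 and 11, with medians of 0.12, 0.12, 0.14 and 0.10, so the number of calls depended on scaling while the direction did not.

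The cytochrome oxidase subunit COX7AL2 rose most in these lists, with 12.56, 12.84 and 13.07 on poor food and 12.07, 12.33 and 12.68 on standard food (0.50 ± 0.06, adjusted p = 2.51e-05). Idh3a, a subunit of the citric acid cycle's isocitrate dehydrogenase, had no overlap between the diets at a difference of only 0.31 ± 0.04 (adjusted p = 4.46e-05), with 12.08 to 12.42 on poor food and 11.84 to 12.03 on standard food. ND-B14.5A (0.22), SdhB (0.27), SdhD (0.23), ATPsyndelta (0.23), Idh3g (0.23) and mRpL23 (0.40) are further examples. Chosen after their values were seen, COX5B, UQCR-14, ATPsynB, COX8 and COX7B each separated all 12 arrays on poor food from all 12 on standard food by differences of 0.15 to 0.22.

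Lists of cytosolic translation and the proteasome had no called genes. In limma 0 of 35 measured cytosolic ribosomal proteins passed (2 at an unadjusted p under 0.05, 2 called by ordinary least squares), 0 of 27 ribosome biogenesis genes (6 and 0) and 0 of 40 proteasome subunits (1 and 0). Their medians were 0.05, 0.06 and 0.01. Positive differences were found in 31 of 35, 19 of 27 and 27 of 40 of them, against 7089 of 11982 genes in all. The 35 ribosomal proteins were those measured out of 87 listed. Simulated differences of 0.25, given to probe sets drawn at random from the whole array, were recovered in 56.0% of them and differences of 0.5 in 95.5%. The simulation changed 200 probe sets at each size and drew noise independently for each probe set, so recovery in the data can differ. Recovery was not simulated for these lists alone, and small changes of their genes could have been missed.

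Muscle genes rose, 10 of 19, with none down and a median of 0.17 (7 with arrays centred on their medians). Act79B, an actin of tubular muscles, had 12.13, 12.42 and 12.76 on poor food and 11.69, 11.86 and 12.12 on standard food, with no overlap and a difference of 0.54 ± 0.06 (adjusted p = 1.22e-06). TpnC41C, a troponin C of flight and leg muscle, rose by 0.47 without overlap, fln, flightin of flight muscle, by 0.44 and the Z-disc protein Zasp52 by 0.33. SERCA, the calcium pump of muscle and other cells, was chosen after its values were seen. Its brightest probe set had 12.85, 13.19 and 13.42 on poor food and 12.24, 12.52 and 12.73 on standard food, without overlap. The summed muscle level, as a list mean, ran between 11.89 and 12.31 on poor food and between 11.73 and 11.97 on standard food, and the part of tissue proportions in these results was not tested.

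**Figure D4:**
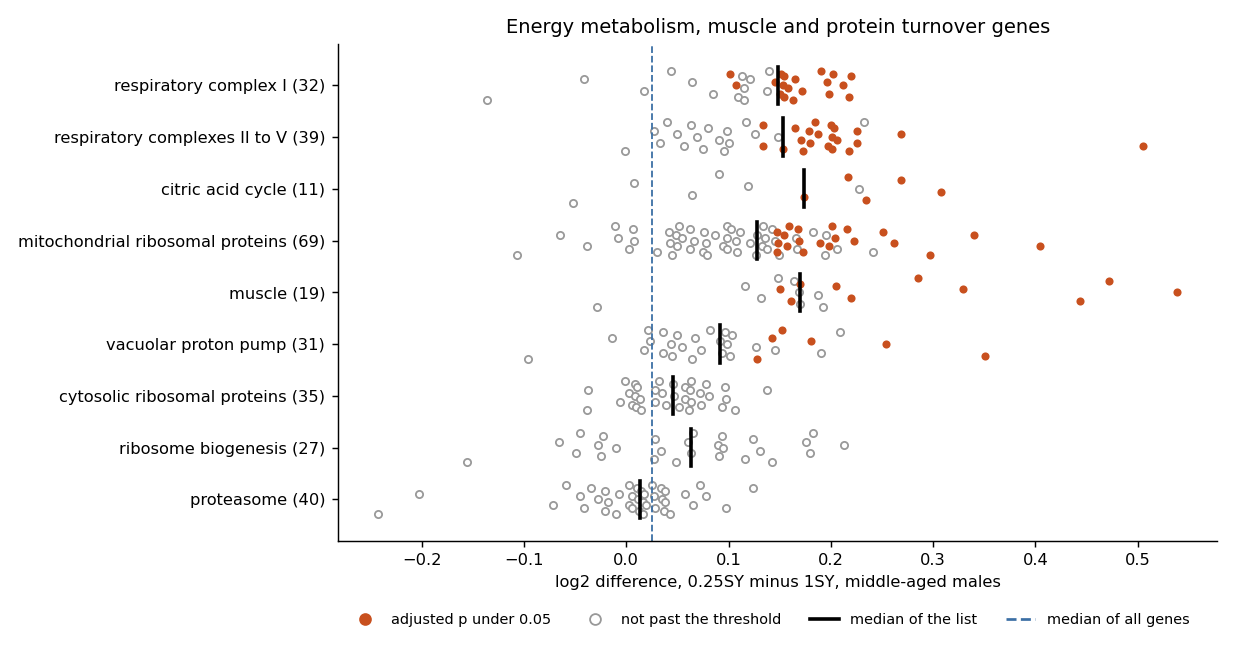
Log2 difference (0.25SY minus 1SY) of each measured gene in 9 lists in middle-aged males, 24 arrays, with the number of genes in brackets. Filled points passed the adjusted threshold, black bars are list medians and the dashed line is the median of all genes (0.02). The upper 5 lists have medians of 0.13 to 0.17 and the 3 lowest lists have no filled point.

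In the Malpighian tubule list 3 of 14 rose and 1 fell. Over all genes 6.74% rose and 5.32% fell, the background for each list in this paragraph. The potassium channel Irk3 rose by 0.86 ± 0.12 without overlap, with 10.01 to 10.79 on poor food and 8.87 to 9.97 on standard food (adjusted p = 6.23e-05). Smvt, a multivitamin transporter, rose by 0.41, and ry, the xanthine dehydrogenase that makes urate, fell by 0.52. Of 31 subunits of the vacuolar proton pump 6 rose, led by Vha100-5 (0.35), and 2 with arrays centred on their medians. Of 20 neuropeptides 3 rose, Nplp3 by 0.79, leucokinin (Lk), which controls fluid secretion and feeding, by 0.53 and sNPF, a feeding peptide, by 0.29, and Capa fell by 0.26. In the eye list 3 of 15 rose (chp by 0.25, Arr1 by 0.23, santa-maria by 0.19), and 1 with arrays centred on their medians.

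Detoxification genes moved both ways. Of 81 cytochrome P450 genes 11 fell and 5 rose (14 and 2 with arrays centred on their medians), with a median of -0.03. Cyp28d1 fell by 0.66, Cyp309a1 by 0.63 and Cyp4d8 by 0.54, while Cyp12b2 rose by 0.37. Of 34 glutathione S-transferases 4 fell and 2 rose, with GstD8 down by 1.32 ± 0.25 (adjusted p = 0.00118) between medians of 7.65 on poor food and 9.04 on standard food, and GstE10 up by 0.37. Of 35 UDP-glycosyltransferases 4 fell, among them Ugt36F1 by 0.79, and of 47 odorant-binding proteins 5 fell, with Obp56a down by 1.19. None rose in these 2 families. In each of the families above, the share that fell exceeded the 5.32% over all genes, and the share that rose was below the 6.74%. In either direction the P450 genes and glutathione S-transferases exceeded the 12.1% called over all genes, and the last 2 families did not. Without the 3 arrays of lowest quality weight 2 UDP-glycosyltransferases and 3 odorant-binding proteins fell, and 1 of each rose.

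Called markers of reproductive tissue differed by less than 0.5. Of 32 testis genes 1 fell (mia, by 0.27), and of 26 accessory gland or ejaculatory duct genes 2 rose (Mst57Dc by 0.36, Mst57Da by 0.20) and 1 fell (Acp26Ab, by 0.44). The share called in the accessory gland list was close to the 12.1% over all genes, so that list did not stand out. No gene passed in limma of 16 for eggshell and yolk (1 at an unadjusted p under 0.05, 0 by ordinary least squares) or of 17 for female germline (1 and 0). Fat body proteins had list means of 6.98 to 9.56 on poor food and 8.13 to 9.98 on standard food, with fit the only 1 of 6 called.

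The test of whether larval diet altered the adult diet difference had little power for small effects. The interaction passed for 2 of 18769 probe sets (0.0107%), DnaJ-1 and CG4250, with 1820 at an unadjusted p under 0.05. Simulated interactions, placed on larval 2.5SY alone in probe sets drawn at random, were recovered in 3.5% at 0.25 and in 36.5% at 0.5. The simulated noise was independent between probe sets, so recovery in the data can differ. With array quality weights 9 passed. DnaJ-1, a co-chaperone of Hsp70, had tight values within each group of 4. On poor food they lay between 12.17 and 12.44 after larval 0.25SY, between 12.004 and 12.13 after larval 1SY and between 12.09 and 12.30 after larval 2.5SY. On standard food they lay between 11.42 and 11.61, between 11.33 and 11.48, and between 12.19 and 12.24 for the same larval diets. The differences were thus 0.81, 0.66 and -0.01 (moderated F-test, adjusted p = 8.94e-04). Males on 2.5SY had the low level after larval 0.25SY (11.45 to 11.63) and the high level after the other 2 larval diets (12.01 to 12.26). Each of these groups is 1 cohort. CG4250 differed by -1.23, -0.21 and 0.31 (adjusted p = 0.0361), and the next 3 genes, Gprk2, hep and CG6972, did not pass (0.067 to 0.138).

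The response of old males was compared in a joint fit of 48 arrays. The difference between ages passed for 6 probe sets (0.032%), 1491 at an unadjusted p under 0.05. CG3841 differed by -0.23 in middle-aged and 0.33 in old males, Phae1, a serine peptidase, by -0.24 and 0.30, and LManI, a lysosomal mannosidase, by -0.27 and 0.39. Fmo-2, a monooxygenase, differed by -0.27 and 0.10, and DnaJ-1 by 0.48 and 0.01. The adjusted p of these 5 genes ran between 0.0215 and 0.0471. Of the old males, 2 arrays went against their labels (1 with female germline genes, 1 closer to 1-day-old males), and without them 61 probe sets passed (0.325%), among them Act79B (adjusted p = 1.55e-04), Zasp52 (0.00526) and ND-39 (0.0334). With all 24 old male arrays the phosphatases had differences of 4.01 (phu), 2.72 (Alp8) and 2.40 (Alp2), and no member of that list passed the test of a difference between ages. Jon99Fi differed by 1.61 in middle-aged and 3.30 in old males, which was not past the threshold (adjusted p = 0.467), and CG12374 by 1.78 and 1.71. With all 24 old male arrays kept, the median of complex I was -0.02 in old males, against 0.15 in middle-aged males. These arrays include the 2 against their labels, and the median without them is not given here. Without the 2 arrays, 1 member of complex I passed the test of a difference between ages.

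Sex made a far larger difference. In a joint fit with 24 arrays of middle-aged females on the same diets, the adult diet response differed between the sexes for 7289 probe sets (38.8%), and for 957 of the 1444 genes called in males. Reproductive tissue markers moved in the same females: eggshell and yolk genes had a median difference of 0.07 in males and -3.33 in females, and female germline genes 0.0019 in males and -0.94 in females, with 15 of 16 and 14 of 17 past the test of the sex difference. The part of this in the sex differences of other genes was not tested. Carbohydrate digestion had medians of opposite sign: the list's median was -0.52 in males and 1.18 in females, and all 12 members passed the test of the sex difference. Mal-A4 differed by -1.04 ± 0.21 in males and 0.95 ± 0.26 in females (adjusted p of the difference 2.82e-05). Sardh differed by -1.32 in males and 0.98 in females, and Lip3 by -1.46 and 1.31.

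Both leading peptidases responded differently in the sexes. Jon99Fi differed by 1.61 in males and -0.03 ± 0.23 in females (adjusted p of the difference 8.39e-05), and CG12374 by 1.78 in males and -0.07 ± 0.23 in females (1.80e-05). Npc2d (0.99 and -0.24) and CG12057 (1.35 and -0.21) had the same pattern. Of the immune genes, Drs differed by -1.43 in males and 0.09 in females and pirk by -1.44 and 0.12, both past the test of the difference. The phosphatases had differences of the same sign in females, 5.29 for phu, 3.52 for Alp8 and 2.91 for Alp2, and of these Alp2 passed the test of the sex difference (adjusted p = 0.0264). MtnB (-1.57 in males, -1.76 in females) and fit (-1.85 and -1.64) had close values, with adjusted p of 0.813 and 0.795. The 5 smallest p of this test belonged to Mdr49, St3, Paics, CG18547 and Phae1, all negative in males (-0.79 to -0.20) and positive in females (0.78 to 1.08). A dimmer probe set of St3 went the other way in males (0.14, limma adjusted p = 0.0394).

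**Figure D5:**
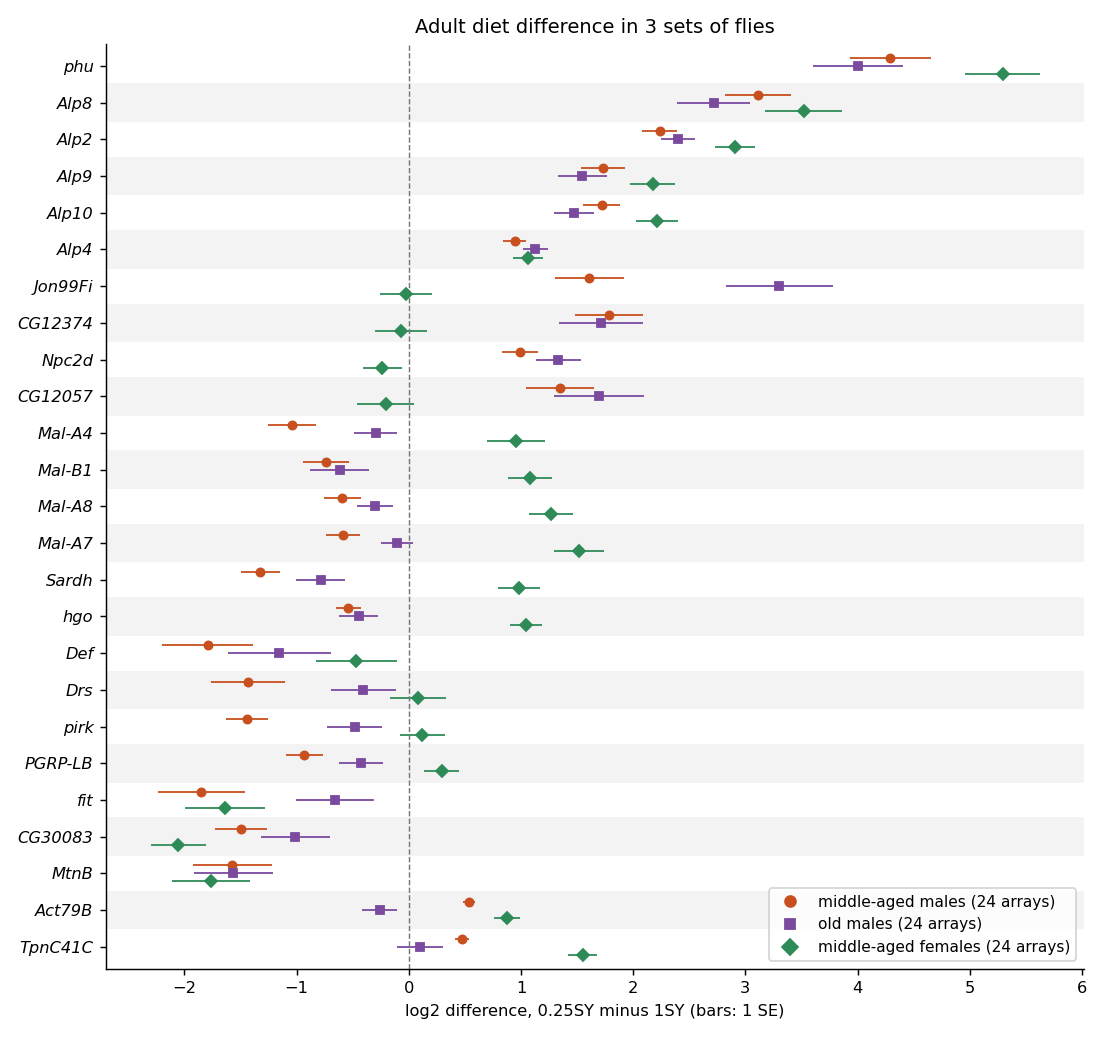
Log2 difference (0.25SY minus 1SY) with 1 SE for 25 genes in middle-aged males, old males and middle-aged females, 24 arrays each. The old males include the arrays that went against their labels. The phosphatases at the top lie right of 0 in all 3 sets of flies, Jon99Fi and CG12374 lie right of 0 in both sets of males and near 0 in females, and the 4 maltases shown lie left of 0 in middle-aged males and right of 0 in females.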

How the data were processed

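Whole flies were measured on Affymetrix Drosophila 2.0 arrays. The authors made the deposited log2 values with RMA (background adjustment, quantile normalization, probe summary), per the study's methods on each sex after leaving out some arrays. Which arrays these were, and whether the deposited table of 216 arrays was normalized per sex, is not given in the sources used here. RMA signals have no read depth and compress differences near background. Of 18952 probe sets, 183 controls were left out, and 18769 were tested. Of these, 13647 were paired with 1 symbol, 402 with several and 4720 with none; 13544 symbols were updated through Entrez identifiers to the Release 6 plus ISO1 MT annotation, used for names and neighbours only.

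Larval and adult diet were fitted to the 24 arrays with limma 3.58.1 (R 4.3.3) and Benjamini-Hochberg adjustment over all tested probe sets and a threshold of 0.05. Interactions with larval diet, age and sex were fitted on 24, 48 and 48 arrays. The script was tested on simulated data. A gene is its brightest probe set with 1 symbol, which 11982 genes had. Genes named were the 15 largest called differences in each direction, Jon99Fi and CG12374, up to 4 called members of a list and 2 that went the other way, the 5 smallest p of each interaction, and any digestive peptidase. The members, lists and tests were chosen with earlier results of these data known.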

Additional observations from a re-analysis of the deposited data

Results flagged for a closer look

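In each of the 6 groups of 4 arrays, 8 measures (array median, 2 list means and the genes phu, Alp8, Alp2, Jon99Fi and CG12374) were searched for an array far from the other 3, and 4 of the 48 combinations of group and measure were marked, in 3 groups, where chance marks about 1 in 20. In males on poor food raised on 0.25SY, replicate 2 had an array median of 7.34, against 7.29 to 7.30 in the others, and replicate 1 had an eggshell and yolk mean of 7.16, against 5.78 to 6.01. The fat body mean was 6.98 in replicate 3 of males on poor food raised on 2.5SY, against 9.07 to 9.33, and 8.13 in replicate 4 of males on standard food raised on 0.25SY, against 9.36 to 9.57. What set these arrays apart was not tested.

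Differences that passed a test between groups follow as values. Between larval diets these were DnaJ-1 (adjusted p = 8.94e-04) and CG4250 (0.0361). As middle-aged minus old males, the adult diet differences of CG3841, Phae1, Fmo-2 and LManI were -0.55, -0.53, -0.37 and -0.65, and that of DnaJ-1 was 0.47. As males minus females they were 1.85 for CG12374, 1.64 for Jon99Fi, 1.55 for CG12057, 1.23 for Npc2d and 0.75 for CG10182. They were negative for Alp2 (-0.67), CG12483 (-0.83) and CG11425 (-2.14), which had larger positive differences in females. Among genes that fell in males they were -2.21 for CG15369, -1.33 for Def, -1.31 for Sid, -2.78 for Lip3, -1.14 for CG9733, -2.15 for CG42807, -1.56 for pirk, -2.18 for CG17107 and -1.52 for Drs.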

How the results depend on the processing

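Each choice was changed on its own for the 2 counts of probe sets and for 30 genes with the largest differences. Directions of these genes did not reverse, and 2 values lost the threshold: CG12057 in a fit of all 72 middle-aged and old male arrays, and CG11425 without the 3 arrays of lowest quality weight, a setting chosen after seeing the data. Counts of probe sets were 628 higher with arrays centred on their medians and 1224 lower with array quality weights. Leaving out each array in turn gave 796 to 1132 higher, 615 to 969 lower and 1 to 5 for the larval by adult interaction, with 1 without any single one of 13 arrays and 5 without replicate 2 or 3 on standard food after larval 2.5SY or replicate 4 on standard food after larval 0.25SY. The replicate numbers did not pair arrays (mean correlation of deviations -0.05 for equal and 0.02 for other numbers), and with the replicate block 889 probe sets were higher, 701 lower, 1 passed for larval by adult diet, 1 for age and 7278 for sex. The larval by adult count was 9 with quality weights. The age count was 148 with quality weights, 10 with quantile normalization over 48 arrays and 61 without the old arrays against their labels. Without the 3 arrays of lowest quality weight, PC2 differed by 11.1 (adjusted p = 0.00645). The cause of these changes was not tested. Within blocks of provider sample numbers, 84.1%, 100% and 99.3% of called probe sets kept their direction. These probe sets had been called on the same arrays, so such agreement was in part built in and is no separate test. With the blocks in the fit, 1076 probe sets were higher and 682 lower. The blocks held 4, 6 and 2 arrays on poor food and 1, 6 and 5 on standard food. The 1 array on standard food in the first block was the one that stood apart. Signals near background limit dim genes such as Alp8 on standard food.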
